A study of Mus musculus with 5 samples.

Results

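The genes described here are the Toll-like receptors Tlr7, Tlr8, Tlr9, Tlr13, Tlr2 and Tlr4 and 4 of their partners, the transport chaperone Unc93b1, the adaptor Myd88, the transcription factor Irf5 and the inhibitory kinase homologue Irak3. They were chosen by gene symbol, and all 10 were found among the 31053 genes counted in a single-cell RNA study of mouse skin. The study holds 5 droplet libraries, 1 for each of 5 groups, all on the C57BL/6 background. Lesional skin is whole skin of K5. Pp6fl/fl mice at 18 weeks of age with psoriasis-like lesions. Imiquimod dermis is dermis of wild-type mice of 10 weeks whose ears received imiquimod, a TLR7 agonist, on each of 5 days. Non-lesional epidermis is epidermis of K5. Pp6fl/fl mice of 10 weeks without lesions. Untreated dermis and untreated epidermis came from wild-type mice of 10 weeks. By its name, the K5. Pp6fl/fl genotype joins a driver from keratin 5, a gene of basal keratinocytes, to a floxed allele of protein phosphatase 6, and the labels do not name the recombinase. The number of mice behind a library, and the body site of the mice that did not receive imiquimod, are not given in the sources used here. Lesional skin differs from each other group in age and tissue layer, and from the wild-type groups also in genotype. Lesion, age, layer and genotype therefore cannot be told apart. Imiquimod dermis is of ears and the site of untreated dermis is not given, so treatment and body site cannot be told apart either. The words after imiquimod name that library and not a shown effect of the treatment.

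Toll-like receptors are membrane proteins of innate immunity that bind molecules of microbes and of damaged cells. Tlr7 and Tlr8 bind single-stranded RNA and its breakdown products, Tlr9 binds DNA with unmethylated CpG, and Tlr13, which mice have and humans lack, binds a stretch of bacterial ribosomal RNA. These act inside endosomes, to which Unc93b1 carries them. Tlr2 binds bacterial lipoproteins together with Tlr1 or Tlr6, and Tlr4 binds lipopolysaccharide with Ly96 and Cd14, both at the cell surface. Myd88 couples all of them to the IRAK kinases, Irf5 is switched on downstream of Myd88 and drives inflammatory cytokine genes, and Irak3 (also called IRAK-M) holds the IRAK step back.

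After filtering, 11577 cells remained, from 519 in untreated dermis to 4776 in imiquimod dermis, with 2579 in lesional skin. The median UMI count per cell (unique molecular identifiers, 1 per captured RNA molecule) lay between 3407.5 in untreated epidermis and 8281 in lesional skin. Marker genes placed 10348 cells (89.4%) in a class. A level is given as CPM, the UMIs of a gene over all cells of a class in a library scaled to a class total of 1000000, with its exact Poisson 95% interval and its UMIs in brackets. Where a gene had 0 UMIs, the limit given is that of 3 UMIs. All intervals cover counting error only. Because each group is 1 library, no test between groups was run and no difference has a replicate check. The words higher and lower, or called, are used of a ratio between libraries whose exact 95% interval lay entirely past 1.5-fold on a side, with at least 10 UMIs over the pair and at least 20 cells of the class in each. A ratio that was not called is not shown to be unchanged. Log2 ratios and their medians were taken with 0.5 UMIs added to each count, so at few UMIs they differ from the ratios printed. Levels of different genes are not set against each other. In a class sum, fewer expressing cells and less RNA per cell cannot be told apart, but shares of cells are given for the receptors.

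Some features of the libraries touch the results below. Lesional skin mixed sexes, with 736 cells that held Xist UMIs and no Y-linked UMIs and 1081 that held the reverse, while in the other 4 libraries 1 cell held Xist alone. No cell barcode of lesional skin was shared with another library, and any other pair of libraries shared at most 27. RNA of neutrophil markers was present across the classes of imiquimod dermis: 8 of 8 markers were detected in its C1q macrophages, with a summed level of 2440.1 CPM, against 146 CPM in those of lesional skin and 89.3 CPM in those of untreated dermis. The markers of each class were counted among its leading genes. The same markers set the gate, so these counts are not an independent check of what the cells are. Low counts included 1 in keratinocytes of non-lesional epidermis and 2 in dendritic cells of the cDC2 type in lesional skin and untreated dermis. C1q macrophages had 8, 6 and 7 of their own markers among their 10 leading genes in lesional skin, imiquimod dermis and untreated dermis, and neutrophils had 4 in lesional skin and 5 in imiquimod dermis. Cells whose leading scores were those of monocytes and macrophages, without a clear lead of either, have no marker list of their own. They are called intermediate cells here.

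The genes lie at separate loci except for Tlr7 and Tlr8, which are neighbours. On mouse build GRCm38 (GENCODE vM21), Tlr7 spans chrX:167304929-167330558 and Tlr8 spans chrX:167242696-167264329, both on the minus strand and 40599 bases apart, and Tlr13 spans chrX:106143204-106160493 on the plus strand. Tlr9 spans chr9:106222598-106226883 on the plus strand, Tlr2 spans chr3:83836272-83841767 on the minus strand and Tlr4 spans chr4:66827584-66930284 on the plus strand. Unc93b1 spans chr19:3935186-3949340 and Irf5 spans chr6:29526625-29541871, both on the plus strand, and Irak3 spans chr10:120141648-120202130 on the minus strand. Myd88, at chr9:119335934-119341411 on the minus strand, lies within the annotated span of Slc22a14 on the same strand. Its counts, and to a smaller degree those of Irf5 next to Tnpo3 and of Irak3 next to Tmbim4, are therefore uncertain where the counting could not place a read.

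Promoter sequences (250 bases before a RefSeq start to 50 after it, build GRCm38.p6) were available for 7 of the 10 genes. RefSeq starts can differ from the ends of the GENCODE spans above, and the Myd88 window lies wholly inside its span. Printed here are those of Tlr13 and Tlr8, receptors called higher in lesional neutrophils or macrophages, of Tlr2, called higher in lesional keratinocytes, and of Myd88, which was counted in every class of at least 20 cells. Each is written 5′ to 3′ on the strand of its gene. Capitals mark matches to 1 of 4 searched motifs on either strand: GAGGAAG (PU.1-type, a factor of myeloid cells), GGGANTTNCC (NF-kB-type), GAAANNGAAA (interferon-response-type) and TTGCNNAA (C/EBP-type).
Tlr13, chrX:106143025-106143324, plus strand: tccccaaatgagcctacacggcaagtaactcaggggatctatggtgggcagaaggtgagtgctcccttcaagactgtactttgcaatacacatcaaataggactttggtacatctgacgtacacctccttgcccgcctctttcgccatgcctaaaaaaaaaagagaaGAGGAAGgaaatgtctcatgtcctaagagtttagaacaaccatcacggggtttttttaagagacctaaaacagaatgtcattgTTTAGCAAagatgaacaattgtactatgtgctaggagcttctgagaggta
Tlr8, chrX:167264280-167264579, minus strand: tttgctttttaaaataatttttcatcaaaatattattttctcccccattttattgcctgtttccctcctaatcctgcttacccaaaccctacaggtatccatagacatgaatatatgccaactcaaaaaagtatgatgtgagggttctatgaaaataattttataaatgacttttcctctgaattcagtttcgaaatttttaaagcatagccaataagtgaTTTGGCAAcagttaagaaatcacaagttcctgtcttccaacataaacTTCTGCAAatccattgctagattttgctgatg
Tlr2, chr3:83841559-83841858, minus strand: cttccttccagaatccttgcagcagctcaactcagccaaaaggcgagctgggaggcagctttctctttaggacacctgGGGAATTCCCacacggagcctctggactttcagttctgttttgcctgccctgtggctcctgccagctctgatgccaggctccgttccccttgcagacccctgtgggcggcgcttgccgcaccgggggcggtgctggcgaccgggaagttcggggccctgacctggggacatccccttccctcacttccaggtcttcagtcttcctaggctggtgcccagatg
Myd88, chr9:119339969-119340268, minus strand: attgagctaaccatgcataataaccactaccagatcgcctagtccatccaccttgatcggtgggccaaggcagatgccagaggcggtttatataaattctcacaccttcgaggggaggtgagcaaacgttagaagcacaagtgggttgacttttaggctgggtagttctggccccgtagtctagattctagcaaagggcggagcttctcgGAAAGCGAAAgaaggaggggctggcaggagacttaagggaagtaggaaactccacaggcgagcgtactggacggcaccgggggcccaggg
Counted from 1 at the left end, Tlr13 held the PU.1-type letters at bases 168 to 174 and C/EBP-type letters at bases 251 to 258, on the reverse strand. Tlr8 held C/EBP-type letters at bases 222 to 229 and 269 to 276, both on the reverse strand. Tlr2 held the NF-kB-type letters at bases 79 to 88, and Myd88 held the interferon-response-type letters at bases 211 to 220. Among the available promoters not printed, that of Irf5 and 1 Irak3 entry held no match. Tlr9 held PU.1-type letters at bases 139 to 145 and 262 to 268, and the other Irak3 entry held C/EBP-type letters at bases 259 to 266. Among all 32851 RefSeq promoters of this length, 13.6% held the PU.1-type motif, 10.8% the C/EBP-type, 3.44% the interferon-response-type and 1.2% the NF-kB-type. These are matches of letters only, and binding was not measured.

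Taken over whole libraries, the endosomal receptors Tlr7 and Tlr13 were counted mostly in myeloid cells. These made up 16.8% of the cells of lesional skin, but 65.9% of those of imiquimod dermis and 58.2% of those of untreated dermis, where most cells were thus myeloid. Macrophages, monocytes, neutrophils and dendritic cells held 92.4% of the Tlr7 UMIs of lesional skin, 85.3% of those of imiquimod dermis and 97.1% of those of untreated dermis. For Tlr13 the shares were 90.6%, 86.3% and 100% in the same libraries. The surface receptors were spread more widely in lesional skin, where myeloid cells held 55.04% of the Tlr2 UMIs and 25.6% of the Tlr4 UMIs, against 80.3% and 82.8% in imiquimod dermis. The plot of UMIs by class gives the shares of all 10 genes. The lesional library is whole skin with many fibroblasts and keratinocytes, so these shares also follow what was dissociated.

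**Figure D1:**
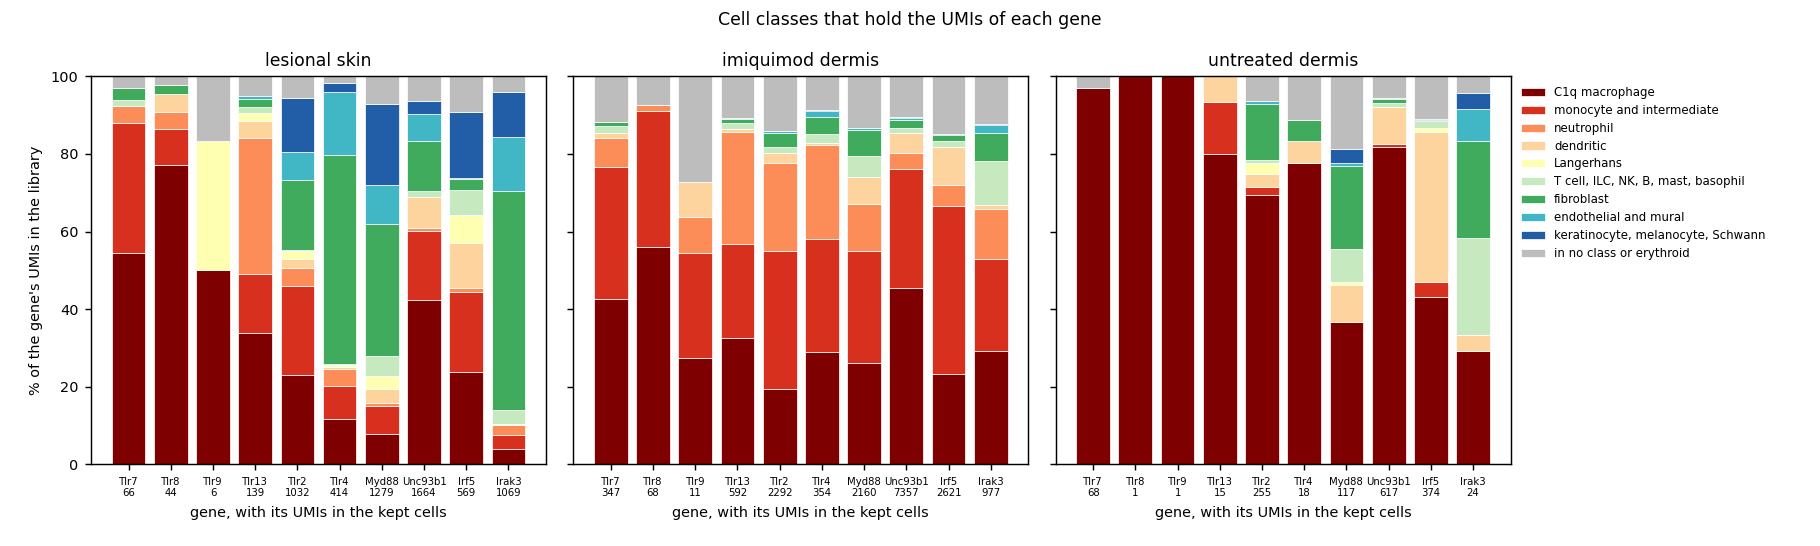
Share of each gene's UMIs (percent, vertical axis) found in each cell class of lesional skin, imiquimod dermis and untreated dermis, 1 bar per gene. Bars of Tlr7, Tlr8 and Tlr13 are made mostly of myeloid classes in all 3 libraries, whereas myeloid classes make up 10.4% of the Irak3 bar and 22.8% of the Myd88 bar in lesional skin.

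Tlr7, the receptor through which imiquimod acts, was a gene of macrophages and monocytes in these libraries. C1q macrophages, the complement-expressing macrophages of the dermis, held 21.6 CPM (15.1 to 29.9, 36 UMIs) in lesional skin, 13.4 CPM (11.3 to 15.8, 148 UMIs) in imiquimod dermis and 50.8 CPM (39.3 to 64.6, 66 UMIs) in untreated dermis. Untreated dermis was the highest of the 3 with an interval apart from both others, and the intervals of lesional skin and imiquimod dermis overlapped. Monocytes held 23.3 CPM (14.4 to 35.7, 21 UMIs) in lesional skin and 13.6 CPM (11.1 to 16.6, 99 UMIs) in imiquimod dermis, close to the macrophages of the same library and with overlapping intervals. Neutrophils held 13.3 CPM (2.75 to 38.9, 3 UMIs) in lesional skin and 7.78 CPM (5.08 to 11.4, 26 UMIs) in imiquimod dermis. Dendritic cells of the cDC2 type, which present antigen in the dermis, held 0 UMIs in lesional skin, 2 UMIs in imiquimod dermis and 0 UMIs in untreated dermis.

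Outside the myeloid cells Tlr7 was at or near 0. Lesional keratinocytes held 0 UMIs (a limit of 0.284 CPM), and no cell class of either epidermis library held a Tlr7 UMI. Lymphocytes (T cells and innate lymphoid cells) held 0 UMIs (a limit of 1.54 CPM) in lesional skin and 2.97 CPM (1.09 to 6.46, 6 UMIs) in imiquimod dermis. By cells, a Tlr7 UMI was seen in 28 of 156 (17.9%, 12.3 to 24.9) C1q macrophages of lesional skin, 125 of 1186 (10.5%, 8.85 to 12.4) of imiquimod dermis and 53 of 244 (21.7%, 16.7 to 27.4) of untreated dermis, at median depths of 9982, 7664 and 4570 UMIs. In lymphocytes, which should lack the gene, the shares were 0 of 409 (0%, 0 to 0.898) in lesional skin, 6 of 248 (2.42%, 0.893 to 5.19) in imiquimod dermis and 0 of 75 (0%, 0 to 4.7995) in untreated dermis, at median depths of 4425, 6016 and 3945 UMIs. Thinned to 2000 UMIs per cell, C1q macrophages with a Tlr7 UMI numbered 1 of 139 (0.719%) in lesional skin, 21 of 1088 (1.93%) in imiquimod dermis and 25 of 185 (13.5%) in untreated dermis. The macrophages of untreated dermis therefore had the highest share at equal depth, and the lesional value is that of 1 cell.

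Tlr8, its neighbour on the X chromosome, had its highest level in lesional macrophages. Of its UMIs, C1q macrophages held 77.3% in lesional skin and 55.9% in imiquimod dermis. C1q macrophages held 20.4 CPM (14.1 to 28.5, 34 UMIs) in lesional skin, 3.44 CPM (2.44 to 4.73, 38 UMIs) in imiquimod dermis and 0.7695 CPM (0.0195 to 4.29, 1 UMI) in untreated dermis. The lesional interval lay above both others, and those of imiquimod dermis and untreated dermis overlapped. Lesional monocytes held 4.45 CPM (1.21 to 11.4, 4 UMIs) and those of imiquimod dermis held 2.61 CPM (1.57 to 4.08, 19 UMIs), with overlapping intervals. A Tlr8 UMI was seen in 27 of 156 (17.3%, 11.7 to 24.2) C1q macrophages of lesional skin, 35 of 1186 (2.95%, 2.06 to 4.08) of imiquimod dermis and 1 of 244 (0.4098%, 0.0104 to 2.26) of untreated dermis. Lymphocytes showed one in 0 of 409 (0%, 0 to 0.898) cells of lesional skin, 0 of 248 (0%, 0 to 1.48) of imiquimod dermis and 0 of 75 (0%, 0 to 4.7995) of untreated dermis. At 2000 UMIs per cell the macrophages were 5 of 139 (3.597%) in lesional skin, 7 of 1088 (0.643%) in imiquimod dermis and 0 of 185 (0%) in untreated dermis, so the order of the libraries was the same on few cells.

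Tlr13 stood out as a neutrophil gene. Neutrophils held 218 CPM (161 to 288, 49 UMIs) in lesional skin and 51.1 CPM (43.8 to 59.4, 171 UMIs) in imiquimod dermis, in each library the highest of its classes with an interval apart from the next. C1q macrophages held 28.2 CPM (20.7 to 37.5, 47 UMIs) in lesional skin, 17.4 CPM (15.02 to 20.04, 192 UMIs) in imiquimod dermis and 9.23 CPM (4.77 to 16.1, 12 UMIs) in untreated dermis, and monocytes held 21.1 CPM (12.7 to 32.97, 19 UMIs) in lesional skin and 15.9 CPM (13.2 to 19.1, 116 UMIs) in imiquimod dermis. Within a library, the neutrophil level over that of C1q macrophages was 7.71 (5.06 to 11.8) in lesional skin and 2.94 (2.38 to 3.63) in imiquimod dermis. A Tlr13 UMI was seen in 29 of 65 (44.6%, 32.3 to 57.5) lesional neutrophils and 133 of 650 (20.5%, 17.4 to 23.8) neutrophils of imiquimod dermis, at median depths of 3191 and 3721 UMIs. Lymphocytes showed one in 0 of 409 (0%, 0 to 0.898) cells of lesional skin and 4 of 248 (1.61%, 0.441 to 4.08) of imiquimod dermis. At 2000 UMIs per neutrophil the counts were 17 of 56 (30.4%) in lesional skin and 57 of 547 (10.4%) in imiquimod dermis, in the same order.

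Tlr9, the receptor for CpG DNA that mouse plasmacytoid dendritic cells and B cells use, was barely counted. The 5 libraries held 18 Tlr9 UMIs, 6 in lesional skin, 11 in imiquimod dermis and 1 in untreated dermis. Lesional C1q macrophages held 1.801 CPM (0.371 to 5.26, 3 UMIs), those of imiquimod dermis 0.272 CPM (0.0561 to 0.794, 3 UMIs) and those of untreated dermis 0.7695 CPM (0.0195 to 4.29, 1 UMI). No comparison of Tlr9 between libraries was possible at this depth. The marker gate found 2 plasmacytoid dendritic cells in lesional skin and 6 in imiquimod dermis.

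Unc93b1, the chaperone that the endosomal receptors need to leave the endoplasmic reticulum, was graded over the myeloid classes. C1q macrophages held 424 CPM (393 to 456, 706 UMIs) in lesional skin, 303 CPM (293 to 314, 3345 UMIs) in imiquimod dermis and 388 CPM (355 to 423, 504 UMIs) in untreated dermis. Monocytes held 278 (244 to 314) CPM in lesional skin and 249 (237 to 260.4) CPM in imiquimod dermis, and cDC2 held 158 (128 to 192) CPM in lesional skin, 143 (124 to 164) CPM in imiquimod dermis and 135 (101 to 176) CPM in untreated dermis. In lesional skin the order macrophage, monocyte, cDC2 had no overlap between neighbours. Neutrophils were far lower, at 53.3 (27.5 to 93.05) CPM in lesional skin and 88.5 (78.7 to 99.2) CPM in imiquimod dermis. Langerhans cells, the dendritic-type macrophages of the epidermis, held only 3.46 CPM (0.419 to 12.5, 2 UMIs) in lesional skin and 5.31 CPM (2.14 to 10.95, 7 UMIs) in non-lesional epidermis. The lesional Langerhans level over that of lesional C1q macrophages was 0.00817 (0.000988 to 0.0296).

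The low Unc93b1 of Langerhans cells did not extend to Irf5 and Myd88, but Irak3 was also low. Irak3 stood at 3.46 CPM (2 UMIs) in lesional Langerhans cells and 25.2 CPM (42 UMIs) in lesional C1q macrophages, a ratio of 0.137 (0.0161 to 0.528). In lesional skin, Irf5 stood at 72.7 (52.4 to 98.3) CPM in Langerhans cells and 81.1 (67.96 to 95.9) CPM in C1q macrophages, a ratio of 0.897 (0.619 to 1.28). Myd88 stood at 74.5 (53.9 to 100.3) CPM in Langerhans cells and 59.4 (48.3 to 72.4) CPM in C1q macrophages, a ratio of 1.25 (0.855 to 1.81). Tlr2 was lower in Langerhans cells, at 39.8 (25.2 to 59.8) CPM against 142 (124 to 161) CPM, a ratio of 0.281 (0.175 to 0.432). Tlr7 and Tlr8 held 0 UMIs in Langerhans cells of the 2 libraries with at least 20 of them. Lesional cDC2 shared these low values, with Irak3 at 1.58 CPM (1 UMI), Tlr2 at 18.9 CPM (12 UMIs), 0 UMIs of Tlr7 and 2 UMIs of Tlr8. For Unc93b1 they did not, with Langerhans cells over cDC2 at a ratio of 0.022 (0.00262 to 0.0814). Non-lesional epidermis gave a Tlr2 level of 34.9 (25.6 to 46.6) CPM in Langerhans cells and 1.66 (1.08 to 2.43) CPM in keratinocytes, a ratio of 21.1 (12.8 to 35.5), and an Irf5 level of 72.1 (58.4 to 88.2) CPM in Langerhans cells and 16.8 (14.8 to 18.9) CPM in keratinocytes, a ratio of 4.301 (3.37 to 5.46).

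**Figure D2:**
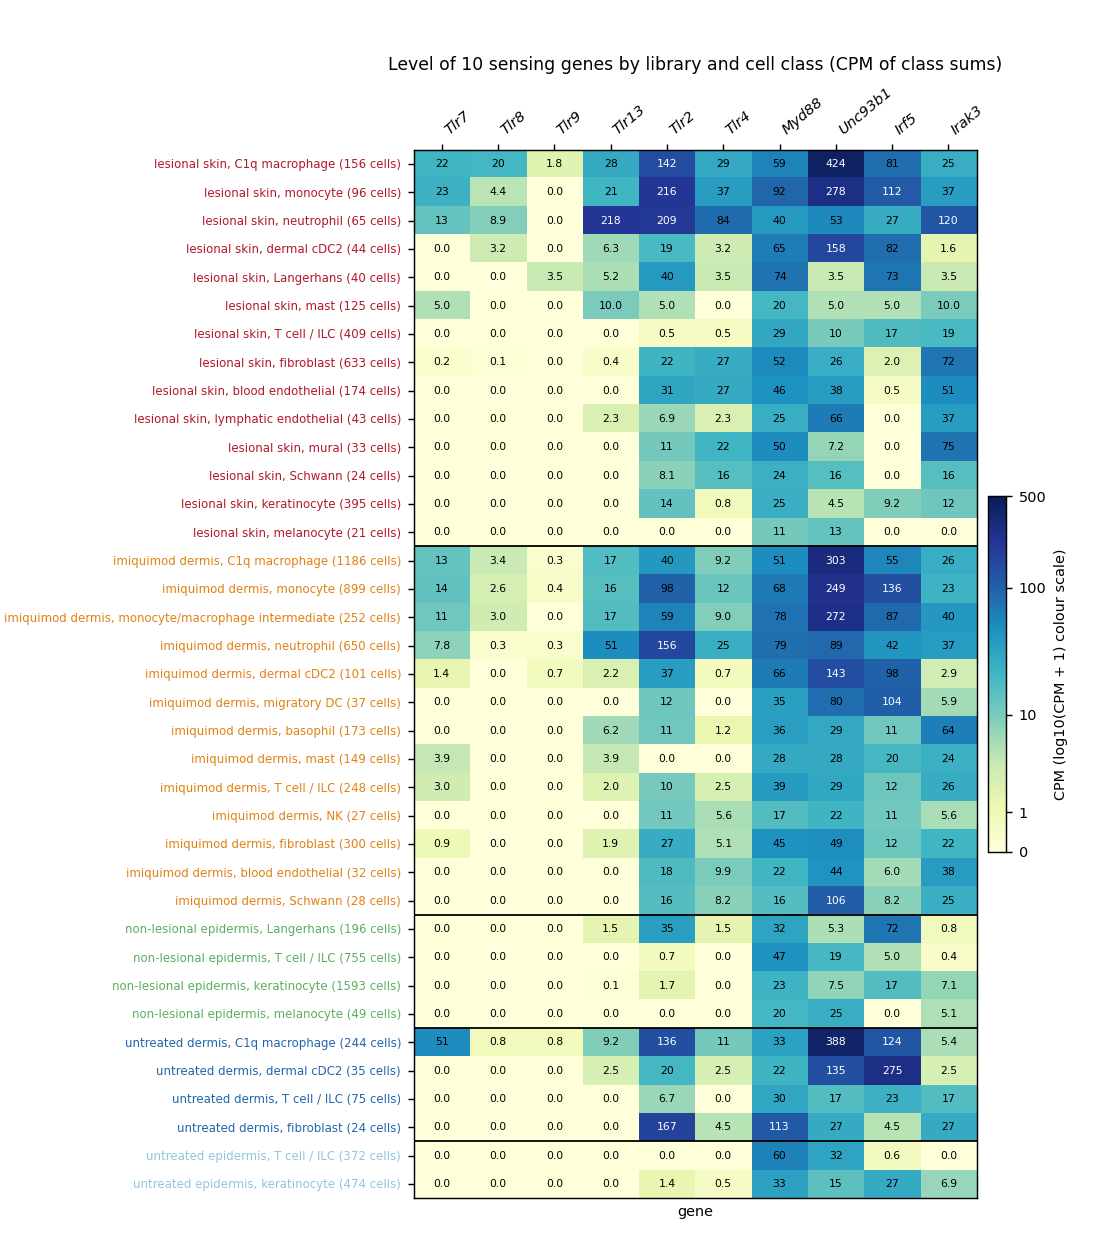
Level of each gene (columns) in each library and cell class of at least 20 cells (37 rows), coloured by log10(CPM + 1). Unc93b1 is darkest in C1q macrophages and pale in Langerhans cells, Tlr13 is darkest in neutrophils, and Tlr7 and Tlr8 are near 0 outside myeloid rows.

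Tlr2, the lipoprotein receptor, was found in myeloid cells, fibroblasts, endothelium and keratinocytes. Monocytes held 216 CPM (186 to 248, 194 UMIs) in lesional skin and 98.2 CPM (91.2 to 106, 715 UMIs) in imiquimod dermis, and neutrophils held 209 CPM (153 to 277, 47 UMIs) in lesional skin and 156 CPM (143 to 170.1, 522 UMIs) in imiquimod dermis. C1q macrophages held 142 CPM (124 to 161, 236 UMIs) in lesional skin, 40.4 CPM (36.8 to 44.3, 446 UMIs) in imiquimod dermis and 136 CPM (117 to 158, 177 UMIs) in untreated dermis. Imiquimod dermis was the lowest of the 3 in macrophages, and the lesional and untreated intervals overlapped. Fibroblasts held 22.3 CPM (19.3 to 25.8, 186 UMIs) in lesional skin, 26.6 CPM (21.2 to 32.9, 84 UMIs) in imiquimod dermis and 167 CPM (118 to 231, 37 UMIs) in untreated dermis, where 24 cells made up the class. Keratinocytes held 13.5 CPM (11.4 to 15.9, 143 UMIs) in lesional skin, 1.66 CPM (1.08 to 2.43, 26 UMIs) in non-lesional epidermis and 1.39 CPM (0.286 to 4.06, 3 UMIs) in untreated epidermis, with the lesional interval above both others.

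Tlr4, the lipopolysaccharide receptor, was called higher in lesional skin than in imiquimod dermis in 4 of the 5 shared classes with enough UMIs to measure it. In these classes 6.41% (neutrophils), 10.3% (monocytes), 22.2% (C1q macrophages) and 25.6% (fibroblasts) of all genes were higher. Scaled by the median ratio over genes, Tlr4 was called in fibroblasts only, and that call was lost with cells thinned to 2000 UMIs. Tlr4 was not called in blood endothelium, at 27.1 CPM (20.6 to 34.8, 60 UMIs) in lesional skin and 9.92 CPM (3.22 to 23.1, 5 UMIs) in imiquimod dermis, a ratio of 2.73 (1.11 to 8.705). Neutrophils held 84.3 CPM (50.8 to 132, 19 UMIs) in lesional skin and 25.4 CPM (20.3 to 31.4, 85 UMIs) in imiquimod dermis. Monocytes held 36.7 CPM (25.2 to 51.5, 33 UMIs) in lesional skin and 12.2 CPM (9.82 to 15.05, 89 UMIs) in imiquimod dermis. C1q macrophages held 28.8 CPM (21.2 to 38.2, 48 UMIs) in lesional skin, 9.24 CPM (7.54 to 11.2, 102 UMIs) in imiquimod dermis and 10.8 CPM (5.89 to 18.1, 14 UMIs) in untreated dermis, with untreated dermis next to imiquimod dermis. Lesional fibroblasts held 26.8 CPM (23.4 to 30.6, 223 UMIs), those of imiquimod dermis 5.06 CPM (2.89 to 8.22, 16 UMIs) and those of untreated dermis 4.52 CPM (0.115 to 25.2, 1 UMI). Keratinocytes were near 0, with 8 UMIs in lesional skin, 0 UMIs in non-lesional epidermis and 1 UMI in untreated epidermis.

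Myd88, the adaptor, was found in all classes. In macrophages, monocytes, neutrophils and cDC2 of the 2 inflamed libraries its level ran from 39.95 (18.3 to 75.8) CPM in lesional neutrophils to 92.2 (73.5 to 114) CPM in lesional monocytes. In untreated dermis, cDC2 held 22.5 (10.3 to 42.7) CPM and C1q macrophages 33.1 (23.9 to 44.6) CPM. Keratinocytes held 24.8 (21.9 to 28) CPM in lesional skin, 23.02 (20.7 to 25.5) CPM in non-lesional epidermis and 32.8 (25.6 to 41.4) CPM in untreated epidermis. Lymphocytes held 29.3 (22.2 to 37.98) CPM in lesional skin, 38.6 (30.5 to 48.1) CPM in imiquimod dermis, 47.3 (39.6 to 56.1) CPM in non-lesional epidermis, 30.2 (13.8 to 57.3) CPM in untreated dermis and 59.6 (48.1 to 73.1) CPM in untreated epidermis. Langerhans cells held 74.5 (53.9 to 100.3) CPM in lesional skin and 31.9 (22.98 to 43.1) CPM in non-lesional epidermis, with intervals apart.

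Irf5 was a gene of antigen-presenting cells. Among classes of at least 20 cells its highest level was that of untreated cDC2, and cDC2 held 82.03 CPM (61.3 to 108, 52 UMIs) in lesional skin, 98.2 CPM (82.4 to 116, 136 UMIs) in imiquimod dermis and 275 CPM (226 to 331, 110 UMIs) in untreated dermis. C1q macrophages held 81.1 CPM (67.96 to 95.9, 135 UMIs) in lesional skin, 55.4 CPM (51.1 to 59.9, 611 UMIs) in imiquimod dermis and 124 CPM (105 to 145, 161 UMIs) in untreated dermis. In both classes untreated dermis was the highest, with no overlap for cDC2 and with an interval apart from both others in macrophages. Monocytes held 112 (91.4 to 136) CPM in lesional skin and 136 (128 to 145) CPM in imiquimod dermis, and migratory dendritic cells of imiquimod dermis held 104 (77.8 to 136) CPM. The cDC2 level over that of C1q macrophages was 1.01 (0.7203 to 1.403) in lesional skin, 1.77 (1.46 to 2.14) in imiquimod dermis and 2.22 (1.72 to 2.84) in untreated dermis. Classes of untreated dermis with fewer cells stood higher, with wide intervals: its 4 monocytes held 409 CPM (187 to 776, 9 UMIs), its 2 cDC1 held 405 CPM (185 to 769, 9 UMIs) and its 7 migratory dendritic cells held 334 CPM (216 to 494, 25 UMIs). Blood endothelium of lesional skin held 1 UMI.

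Irak3 had the lowest myeloid share of its UMIs among the members with over 18 UMIs, in each of the 3 libraries plotted by class. Neutrophils held 119.9 CPM (78.98 to 174, 27 UMIs) in lesional skin and 37.4 CPM (31.1 to 44.5, 125 UMIs) in imiquimod dermis. Fibroblasts held 72.5 CPM (66.8 to 78.5, 603 UMIs) in lesional skin, 21.8 CPM (16.99 to 27.6, 69 UMIs) in imiquimod dermis and 27.1 CPM (9.96 to 59.1, 6 UMIs) in untreated dermis. Mural cells, which wrap small vessels, held 75.3 (46.6 to 115) CPM in lesional skin, and basophils of imiquimod dermis held 63.7 (47.4 to 83.8) CPM, the highest class of that library. C1q macrophages held 25.2 CPM (18.2 to 34.1, 42 UMIs) in lesional skin, 25.8 CPM (22.9 to 29.005, 285 UMIs) in imiquimod dermis and 5.39 CPM (2.17 to 11.1, 7 UMIs) in untreated dermis, so the untreated interval lay below both others. Lymphocytes held 19.03 CPM (13.4 to 26.2, 37 UMIs) in lesional skin, 26.2 CPM (19.6 to 34.3, 53 UMIs) in imiquimod dermis, 0.358 CPM (0.00908 to 1.997, 1 UMI) in non-lesional epidermis, 16.8 CPM (5.45 to 39.2, 5 UMIs) in untreated dermis and 0 UMIs (a limit of 1.94 CPM) in untreated epidermis. The dermal libraries and the whole skin thus held Irak3 in lymphocytes and the epidermal libraries held 1 UMI or none.

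**Figure D3:**
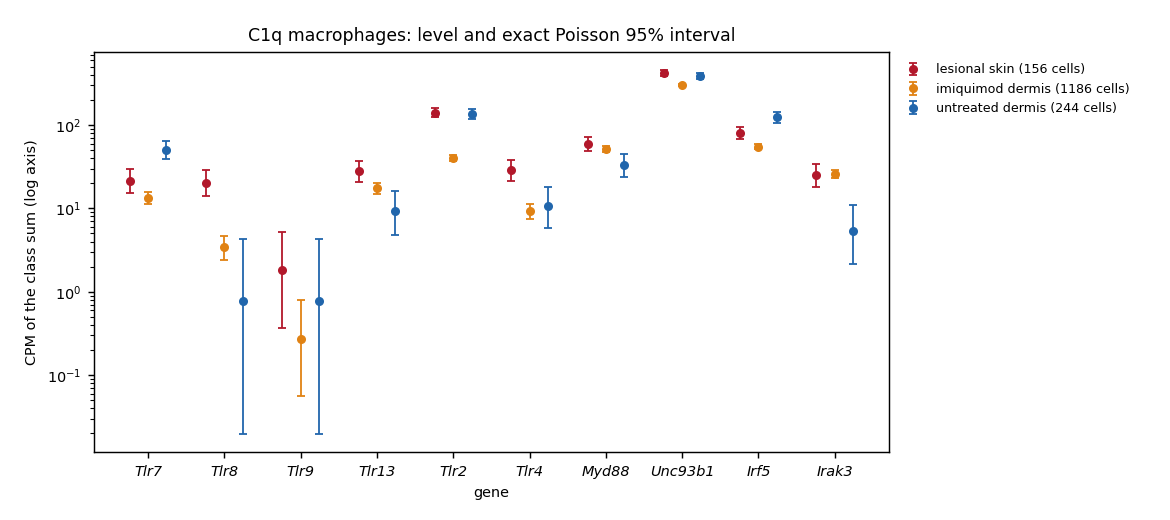
Level of each gene (CPM, log axis, with exact Poisson 95% intervals) in C1q macrophages of lesional skin (156 cells), imiquimod dermis (1186 cells) and untreated dermis (244 cells). Tlr7 and Irf5 are highest in untreated dermis, Tlr8 and Tlr13 are highest in lesional skin, and Irak3 is lowest in untreated dermis.

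Imiquimod dermis was set against untreated dermis in C1q macrophages. Of the 9 genes with enough UMIs, Tlr7, Tlr2 and Irf5 were lower after imiquimod and Irak3 was higher. Tlr7 stood at a ratio of 0.264 (0.196 to 0.359), which is 3.79 (2.79 to 5.09) times lower, Tlr2 at 0.297 (0.249 to 0.355) and Irf5 at 0.447 (0.375 to 0.535). Irak3 stood at 4.79 (2.297 to 12.03). Across the 11469 genes tested in these macrophages, 17.7% were called, 4.26% higher and 13.5% lower, and the median log2 ratio was -0.34 over all genes and -0.26 over the 9 members. Not called were Unc93b1 at 0.782 (0.711 to 0.85997), Myd88 at 1.54 (1.13 to 2.16), Tlr13 at 1.88 (1.05 to 3.71), Tlr4 at 0.858 (0.489 to 1.62) and Tlr8 at 4.47 (0.756 to 181). Scaled by the median ratio over genes, Irf5 was no longer called, at 0.584 (0.490 to 0.699). The summed neutrophil markers given above were higher in the imiquimod macrophages, and neutrophils of that library held 37.4 (31.1 to 44.5) CPM of Irak3. The part of this RNA in the Irak3 result was not tested.

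The macrophages of the 2 dermis libraries differ in make-up, so the comparison was repeated among cells with resident-type markers (208 in imiquimod dermis and 179 in untreated dermis) and among those without (978 and 65). Tlr7 was lower after imiquimod in both, with ratios of 0.334 (0.22003 to 0.504) in cells with resident markers and 0.293 (0.149 to 0.659) in cells without them. Tlr2 gave 0.279 (0.2104 to 0.368) with and 0.217 (0.157 to 0.306) without, and Irf5 gave 0.412 (0.318 to 0.533) with and 0.347 (0.247 to 0.501) without. For Irak3 the ratio was 5.84 (2.15 to 22.2) in cells with resident markers, and it was not called in cells without them, at 1.95 (0.6603 to 9.54).

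Other cell classes of the same pair of libraries gave 3 more calls. In cDC2, Irf5 was lower after imiquimod at 0.357 (0.276 to 0.464), 1 of 4 members measured, where 10% of all genes were called and 6.12% were lower. In fibroblasts, Tlr2 at 0.159 (0.107 to 0.241) and Myd88 at 0.395 (0.257 to 0.6303) were lower, where 7.01% of genes were lower. The untreated fibroblasts are 24 cells, and Myd88 was no longer called under 4 of 12 alternative settings. In lymphocytes none of 5 members was called, against 10.6% of all genes.

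Counts of the wider pathway in C1q macrophages after imiquimod stand beside 4.26% of all genes higher and 13.5% lower in that class. Among other Toll-like receptors, 1 of 5 measured was higher, the Tlr2 partner Tlr1 at 7.45 (2.87 to 27.5). Among 7 coreceptors and accessory proteins the signalling chains Fcer1g at 1.74 (1.68 to 1.803) and Tyrobp at 1.71 (1.64 to 1.78) were higher, and the lipid and lipopolysaccharide receptors Cd36 at 0.155 (0.139 to 0.174) and Cd14 at 0.343 (0.313 to 0.376) were lower. Of 16 chaperones, trafficking factors and proteases that ready the endosomal receptors, 4 were lower, among them the protease Ctsb at 0.344 (0.333 to 0.356) and the nuclease Pld3 at 0.441 (0.385 to 0.507). Of 19 adaptors and proximal kinases, Ikbke at 5.77 (1.56 to 48.3) was higher, and Irak2 at 0.251 (0.175 to 0.366), Ticam2 at 0.273 (0.173 to 0.442) and Peli1 at 0.277 (0.225 to 0.341) were lower.

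The same shares of all genes, 4.26% higher and 13.5% lower, stand beside the counts that follow. Of 9 transcription factors, the interferon regulator Irf7 at 5.41 (2.91 to 11.3) was higher and 4 were lower, led by Irf4 at 0.122 (0.0694 to 0.215), with Nfkb1 at 0.463 (0.387 to 0.557). The median log2 ratio of these factors was -0.92, and that of the chaperones was -0.32 beside -0.34 over all genes. Of 16 negative regulators, Dok3 at 2.903 (2.12 to 4.09) and Ptpn6 at 2.27 (1.88 to 2.76) were higher and 6 were lower, among them Otud7b at 0.168 (0.0932 to 0.309) and Tnfaip3 at 0.456 (0.387 to 0.5397), with a median of -0.50. Of 12 cytokine genes that these receptors induce, Il1b at 2.56 (2.25 to 2.94) and Ccl5 at 2.38 (1.76 to 3.29) were higher, and Tnf at 0.373 (0.317 to 0.441), Cxcl2 at 0.564 (0.531 to 0.598) and Ifnb1 at 0.0883 (0.0253 to 0.2903) were lower. The Ifnb1 value rests on 6 UMIs in imiquimod dermis and 8 UMIs in untreated dermis.

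Lesional skin was set against the same untreated dermis, which both comparisons share. In C1q macrophages, Tlr8, Tlr13 and Irak3 were higher and Tlr7 was lower in lesional skin, 4 of 9 members measured. Tlr8 stood at a ratio of 26.5 (4.45 to 1078), whose width comes from the 1 UMI of untreated dermis, Tlr13 at 3.06 (1.596 to 6.33), Irak3 at 4.68 (2.08 to 12.4) and Tlr7 at 0.426 (0.275 to 0.648). Of 9722 genes tested, 11.1% were called, 6.77% higher and 4.37% lower, and the median log2 ratio was 0.17 over all genes and 0.84 over the 9 members. Not called were Tlr4 at 2.68 (1.45 to 5.25), Myd88 at 1.796 (1.24 to 2.63), Irf5 at 0.654 (0.517 to 0.828), Tlr2 at 1.04 (0.853 to 1.27) and Unc93b1 at 1.09 (0.974 to 1.23). The ratios of both comparisons have the same untreated macrophages below the line, so a shared direction is not a result.

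These lesional calls were less steady than those for imiquimod. Tlr13 was called under 7 of 14 alternative settings and missed the limit narrowly when scaled by the median ratio, at 2.79 (1.46 to 5.78). Thinned to 2000 UMIs per cell, where few UMIs remain, only Tlr7 was called, and Tlr13 stood at 1.06 (0.211 to 4.95). Split by resident-type markers, lesional C1q macrophages with them (55 cells) held 40.7 CPM (25.8 to 61.01, 23 UMIs) of Tlr7 and those without (101 cells) held 11.8 CPM (6.29 to 20.2, 13 UMIs). Untreated macrophages held 52.6 CPM (39.9 to 68.2, 57 UMIs) with the markers and 41.6 CPM (19.01 to 78.9, 9 UMIs) without. The lesional level of Tlr7 over the untreated level was 0.773 (0.454 to 1.27) in cells with resident markers and 0.284 (0.112 to 0.754) in cells without, neither of which was called. Tlr8 stood at 40.2 (6.47 to 1663) in cells with resident markers, and in cells without them it had 13 UMIs in lesional skin against 0 UMIs in untreated dermis.

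Within lesional skin the same split set macrophages with resident-type markers against those without. Cells with resident-type markers over cells without them gave 3.44 (1.67 to 7.39) for Tlr7, 3.14 (1.501 to 6.83) for Tlr8, 2.11 (1.15 to 3.896) for Tlr4 and 1.74 (1.49 to 2.02) for Unc93b1. Tlr2 ran the other way, at 0.421 (0.294 to 0.5901). In imiquimod dermis the same ratio was 1.44 (0.989 to 2.07) for Tlr7, 2.02 (1.32 to 3.07) for Tlr4, 1.05 (0.971 to 1.14) for Unc93b1 and 0.826 (0.646 to 1.05) for Tlr2, and in untreated dermis it was 1.27 (0.622 to 2.91) for Tlr7, 1.199 (0.267 to 11.03) for Tlr4, 1.04 (0.821 to 1.34) for Unc93b1 and 0.642 (0.451 to 0.931) for Tlr2. As Tlr7, Tlr8 and Tlr13 are X-linked and lesional skin mixed sexes, its C1q macrophages were also split into 32 cells with Xist UMIs alone and 75 cells with Y-linked UMIs alone. Xist-only over Y-only cells gave 0.783 (0.232 to 2.105) for Tlr7, 0.939 (0.313 to 2.37) for Tlr8 and 1.12 (0.493 to 2.35) for Tlr13, all with intervals that hold 1.

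Other classes of lesional skin against untreated dermis gave 2 calls. In cDC2, Irf5 was lower at 0.298 (0.2103 to 0.419), 1 of 4 members measured, where 3.44% of all genes were lower. In fibroblasts, Tlr2 was lower at 0.133 (0.0934 to 0.195), 1 of 6 members measured, where 3.41% were lower. In lymphocytes none of 4 was called, against 8.08% of all genes. The pathway counts in lesional C1q macrophages stand beside 6.77% of all genes higher and 4.37% lower. Other Toll-like receptors had 2 of 5 higher, Tlr1 at 7.22 (2.59 to 27.9) and the flagellin receptor Tlr5 at 8.19 (2.003 to 72.1), with a median log2 ratio of 1.36 beside 0.17 over all genes. Cytokine genes had 5 of 9 higher, among them Ptgs2, the enzyme of prostaglandin synthesis, at 5.104 (3.31 to 8.205), Cxcl10 at 3.67 (2.67 to 5.14) and Il1b at 2.33 (2.01 to 2.72), with a median of 0.93. None of 7 coreceptors was called. Among 16 chaperones and proteases, Ctsl at 4.48 (4.16 to 4.84) was higher, and the near-identical pair Rnaset2a and Rnaset2b, whose counts are uncertain, were lower. Ikbke at 9.75 (2.43 to 84.96), Irf7 at 3.12 (1.53 to 6.999), and the feedback inhibitors Socs3 at 4.41 (3.64 to 5.39) and Tnip1 at 2.64 (1.69 to 4.26) were the other calls, all higher, of 19 adaptors and kinases, 9 transcription factors and 15 negative regulators.

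The 2 inflamed libraries were set against each other in neutrophils, a class with no cells in the other 3 libraries. Tlr13, Tlr4 and Irak3 were higher in lesional neutrophils, 3 of 8 members measured. Tlr13 stood at a ratio of 4.25 (3.03 to 5.87), Tlr4 at 3.32 (1.905 to 5.504) and Irak3 at 3.21 (2.03 to 4.89). Of 9048 genes tested, 14.1% were called, 6.41% higher and 7.73% lower, and the median log2 ratio was -0.39 over all genes and 0.70 over the 8 members. Not called were Tlr2 at 1.34 (0.9696 to 1.803), Tlr7 at 1.71 (0.332 to 5.59), Myd88 at 0.508 (0.2297 to 0.979), Unc93b1 at 0.602 (0.307 to 1.07) and Irf5 at 0.627 (0.226 to 1.399). Over genes with at least 10 UMIs in each library the median log2 ratio was positive, so the gap between members and all genes depends on the genes included. Scaled by that median ratio, only Tlr13 was called, with Tlr4 at 2.36 (1.36 to 3.92) and Irak3 at 2.28 (1.45 to 3.48), and the sign of Tlr2 turned. Macrophage RNA moved with this comparison: 7 of 10 C1q macrophage markers were detected in lesional neutrophils at a summed 111 CPM, with C1qa, Adgre1 and Ms4a7 at 0, and 10 of 10 in those of imiquimod dermis at 892 CPM. Its part in the lower values of Unc93b1 and Irf5 was not tested.

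**Figure D4:**
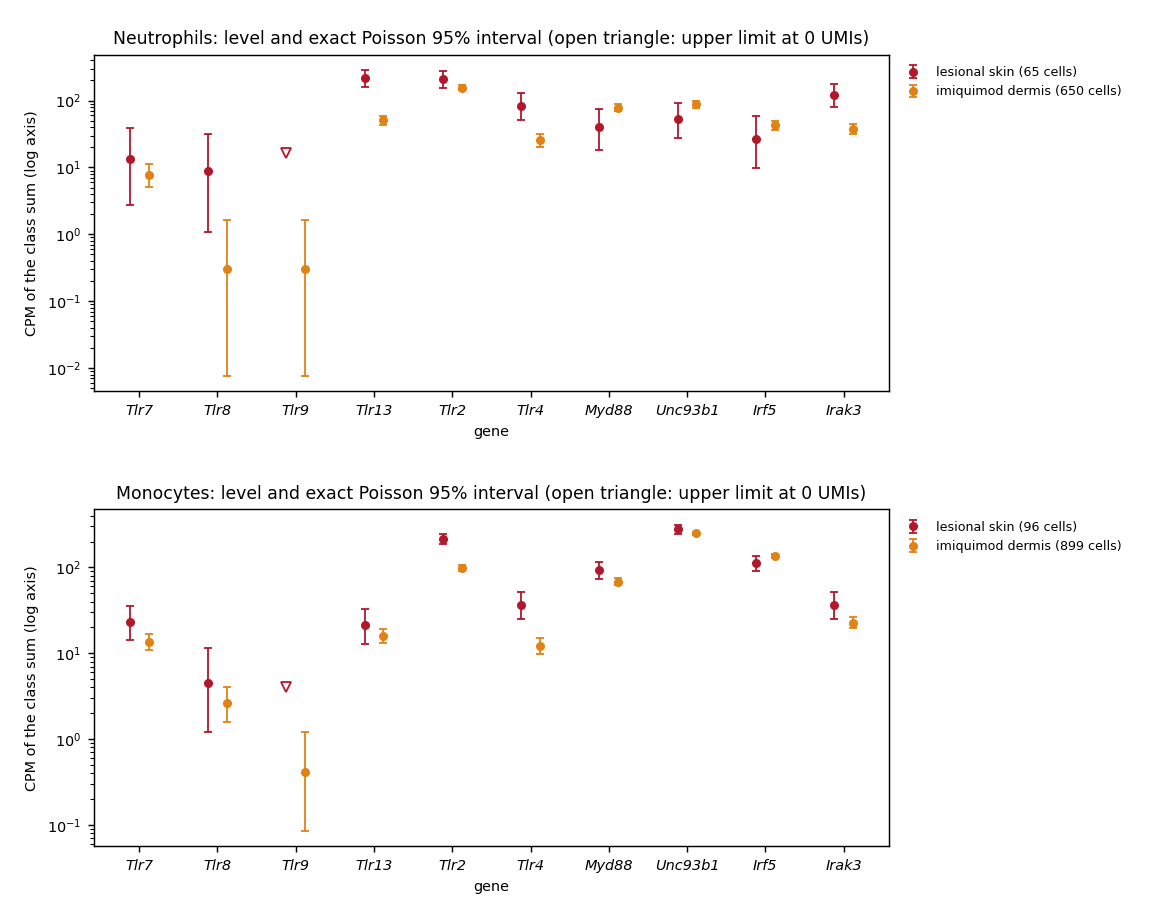
Level of each gene (CPM, log axis, with exact Poisson 95% intervals) in neutrophils and monocytes of lesional skin and of imiquimod dermis. Open triangles mark the upper limit where no UMI was seen. In neutrophils the lesional points of Tlr13, Tlr4 and Irak3 lie above those of imiquimod dermis, and in monocytes those of Tlr2 and Tlr4 do.

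Among pathway genes in neutrophils, 5 of 16 chaperones and proteases were lower in lesional skin, where 7.73% of all genes were lower and 6.41% higher, among them the endosomal proteases Ctss at 0.126 (0.06695 to 0.216) and Ctsl at 0.156 (0.0936 to 0.244) and the nuclease Pld4 at 0.121 (0.0145 to 0.441), and Lgmn had 0 UMIs in lesional skin against 559 UMIs in imiquimod dermis. Their median log2 ratio was -0.82, beside -0.39 over all genes, a median that was positive over genes with at least 10 UMIs in each library. The C1q macrophage markers summed to 111 CPM in lesional neutrophils and 892 CPM in those of imiquimod dermis, and the part of that RNA in these lower values was not tested. Adaptors and kinases had 2 of 18 higher, the adaptor Pik3ap1 at 11.4 (5.07 to 24.8) and the kinase Irak2 at 3.51 (2.41 to 4.999), and transcription factors had 2 of 8 higher, Nfkb1 at 3.83 (2.73 to 5.29) and Rel at 2.32 (1.63 to 3.22). Their medians were 0.71 and 0.84, the adaptors 0.78 with the gene that had no UMI in 1 library set at its limit. Negative regulators had 2 of 15 higher, Tnip1 at 3.58 (2.37 to 5.26) and the phosphatase Inpp5d at 2.75 (1.68 to 4.32). Cytokine genes had 2 of 12 higher, Ptgs2 at 2.45 (1.91 to 3.11) and Cxcl2 at 2.16 (2.11 to 2.22), and 2 lower, Ccl5 at 0.116 (0.00291 to 0.658) and Il6, with 0 UMIs in lesional skin against 110 UMIs in imiquimod dermis.

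Tlr2 and Tlr4 were also higher in the mononuclear cells of lesional skin. In C1q macrophages, Tlr2 at 3.51 (2.98 to 4.11), Tlr4 at 3.12 (2.16 to 4.44) and Tlr8 at 5.93 (3.62 to 9.67) were higher, 3 of 9 measured, where 22.2% of genes were higher and the median over all genes was 0.54. In monocytes, Tlr2 at 2.19 (1.86 to 2.58) and Tlr4 at 2.999 (1.95 to 4.52) were higher, 2 of 9 measured, where 10.3% of genes were higher. Neither monocyte call, nor that of Tlr4 in macrophages, was made when scaled by the median ratio, with Tlr2 in monocytes at 1.69 (1.43 to 1.98). In the same monocytes, adaptors and kinases had 3 of 19 higher, among them Irak2 at 2.65 (1.94 to 3.58), and 1 of 9 transcription factors was higher, Nfkb1 at 3.005 (2.59 to 3.48). Cytokine genes had 2 of 12 higher, Ptgs2 at 5.46 (4.77 to 6.24) and Cxcl2 at 2.64 (2.55 to 2.72), and 2 lower, Ccl5 at 0.0566 (0.00682 to 0.206) and Cxcl10 at 0.275 (0.162 to 0.438). Coreceptors had Cd36 at 3.47 (2.23 to 5.28) and Cd14 at 2.04 (1.91 to 2.18) higher and the signalling chains Fcer1g and Tyrobp lower, of 7 measured. The share of all genes lower in these monocytes is not given here. The counts of lower cytokine genes and coreceptors therefore cannot be read against it.

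In fibroblasts, Tlr4 at 5.29 (3.19 to 9.42) and Irak3 at 3.32 (2.58 to 4.32) were higher in lesional skin and Unc93b1 at 0.527 (0.426 to 0.652) and Irf5 at 0.1698 (0.0899 to 0.308) were lower, of 6 measured, where 25.6% of genes were higher and 8.06% lower. In lymphocytes, Tlr2 at 0.0495 (0.001198 to 0.308) and Unc93b1 at 0.353 (0.201 to 0.594) were lower, of 5 measured, where 5.6% of genes were lower. Lesional lymphocytes with Xist alone over those with Y-linked UMIs alone gave 6.09 (1.7001 to 33.1) for Unc93b1, on 14 UMIs and 3 UMIs, and 0.178 (0.0341 to 0.592) for Irf5, on 3 UMIs and 22 UMIs, with intervals that do not hold 1. Summed C1q macrophage markers were 401 CPM in lesional fibroblasts and 661 CPM in those of imiquimod dermis, and 17.5 CPM in lesional lymphocytes and 413 CPM in those of imiquimod dermis. Summed neutrophil markers were 105 CPM in lesional lymphocytes and 1907 CPM in those of imiquimod dermis. The part of this RNA in the lower Unc93b1, Irf5 and Tlr2 was not tested. In blood endothelium none of 5 members was called and in cDC2 none of 4, against 18.4% and 11.6% of all genes.

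**Figure D5:**
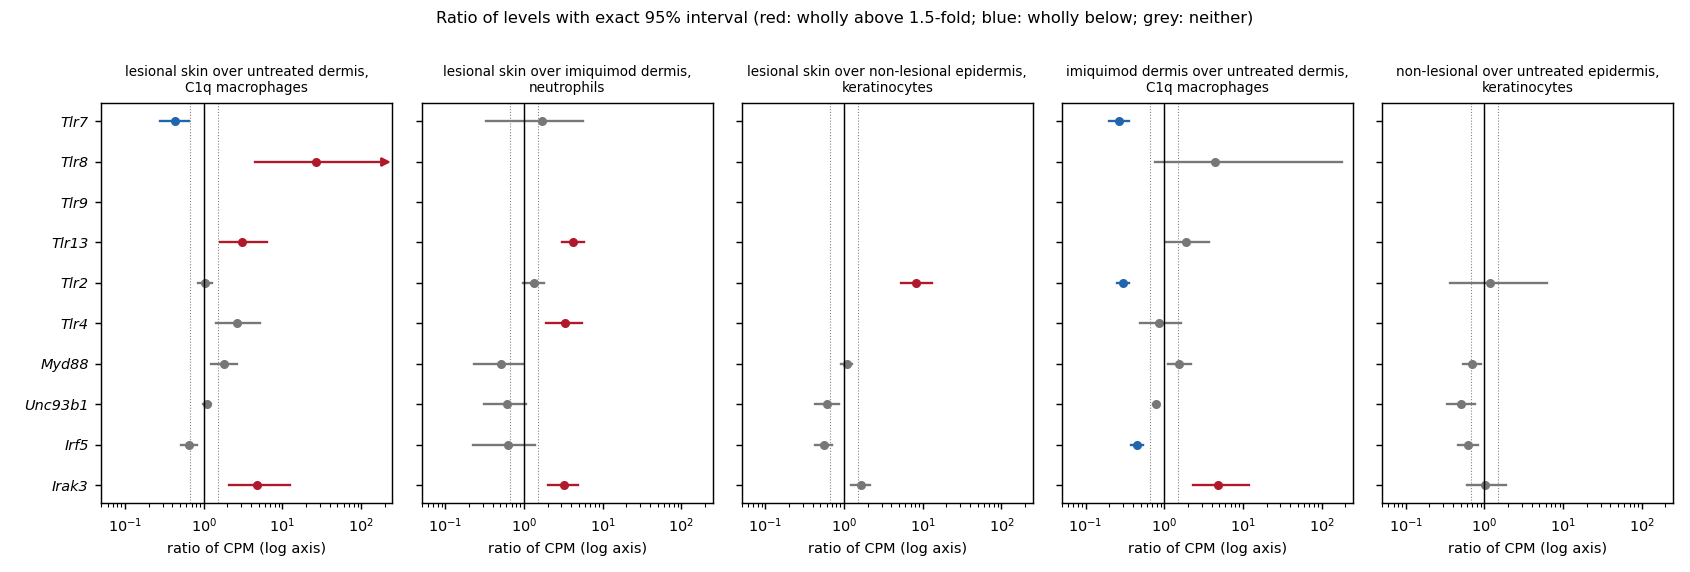
Ratio of each gene between libraries (log axis, with exact 95% intervals) in the class that carries each of the 5 comparisons, lesional skin or the treated or mutant library over the other. Red marks intervals wholly above 1.5-fold, blue wholly below, grey neither, and an arrow marks an interval that leaves the axis. Tlr7 is blue in both macrophage panels, Tlr13 is red in neutrophils and Tlr2 is red in lesional keratinocytes.

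Keratinocytes of lesional skin were set against those of the non-lesional epidermis of the same genotype. This class joins cells gated by basal, suprabasal or hair follicle markers. Its leading genes included Krt1, Krtdap and Krt79 in lesional skin, and Trp63, Aqp3 and Klf5 in non-lesional epidermis. The part of this make-up in the ratios was not tested. Tlr2 was higher at 8.17 (5.35 to 12.9), 1 of 5 members measured, where 36% of 13897 genes were called, 24.9% higher and 11.2% lower. The median log2 ratio was 0.26 over all genes and 0.11 over the 5 members. Not called were Irak3 at 1.62 (1.24 to 2.11), Myd88 at 1.08 (0.916 to 1.27), Unc93b1 at 0.609 (0.426 to 0.859) and Irf5 at 0.548 (0.429 to 0.694). A Tlr2 UMI was seen in 56 of 395 (14.2%, 10.9 to 18.01) keratinocytes of lesional skin, 23 of 1593 (1.44%, 0.917 to 2.16) of non-lesional epidermis and 3 of 474 (0.633%, 0.131 to 1.84) of untreated epidermis, at median depths of 22145, 9616 and 2246 UMIs. Lymphocytes showed one in 1 of 409 (0.244%, 0.00619 to 1.35) cells of lesional skin and 2 of 755 (0.265%, 0.0321 to 0.954) of non-lesional epidermis. At 2000 UMIs per cell the keratinocytes were 12 of 388 (3.09%) in lesional skin, 2 of 1408 (0.142%) in non-lesional epidermis and 0 of 258 (0%) in untreated epidermis. The call was made under all 12 alternative settings in which it could be repeated.

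Within lesional keratinocytes Tlr2 was also uneven. Cells with Xist alone over cells with Y-linked UMIs alone gave 2.36 (1.64 to 3.45), and which sex belongs to which mouse or lesion is not known. Markers of myeloid cells moved with the Tlr2 of keratinocytes. Of C1q macrophage markers, 8 of 10 were detected in lesional keratinocytes at a summed 152 CPM, with Ms4a7 and Fcgr1 at 0, and 7 of 10 in non-lesional keratinocytes at 48.3 CPM. Monocyte markers, 10 of 11 and 6 of 11 of them detected, summed to 29.8 CPM in lesional and 6.57 CPM in non-lesional keratinocytes, and neutrophil markers, 8 of 8 and 4 of 8 of them, to 373 CPM in lesional and 147 CPM in non-lesional keratinocytes. The part of this RNA in the Tlr2 result was not tested.

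The pathway counts in lesional keratinocytes stand beside 24.9% of all genes higher and 11.2% lower, and the counts of higher adaptors, transcription factors and chaperones lay near that share. The Tlr4 coreceptor Cd14 at 4.69 (2.76 to 8.32) was higher among 6 coreceptors and 4 were lower, among them the leukocyte genes Fcer1g at 0.0305 (0.0213 to 0.0423) and Tyrobp at 0.115 (0.0823 to 0.157). Summed lymphocyte markers were 97.7 CPM in lesional and 804 CPM in non-lesional keratinocytes, and their part in these lower values was not tested. Adaptors and kinases had 5 of 17 higher and none lower, with Tab3 at 3.95 (2.83 to 5.58), Peli1 at 2.96 (2.65 to 3.31) and Map3k7 at 2.76 (2.28 to 3.35), and a median log2 ratio of 0.49 beside 0.26 over all genes. Transcription factors had 3 of 9 higher, Nfkb1 at 4.46 (4.05 to 4.92), Irf7 at 2.42 (1.63 to 3.62) and Rela at 1.74 (1.56 to 1.95), with a median of 0.54. Cytokine genes had 4 of 9 higher, Il6 at 23.8 (6.06 to 205), Cxcl10 at 6.88 (6.19 to 7.66), Ptgs2 at 6.49 (5.296 to 7.998) and Il23a at 3.93 (2.21 to 7.33), and Ccl5 was lower. Negative regulators were split, with 3 of 16 higher, among them Tnip3 at 4.67 (1.93 to 12.9), and 5 lower, among them Dok3 at 0.161 (0.0711 to 0.321). Chaperones and proteases had 4 of 16 higher, among them Hsp90b1, which folds Toll-like receptors, at 2.704 (2.57 to 2.85), and 5 lower, among them Ctss at 0.311 (0.215 to 0.439).

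In lymphocytes of the same pair of libraries, Irak3 at 53.1 (8.95 to 2153) and Irf5 at 3.48 (1.82 to 7.03) were higher in lesional skin, 2 of 4 measured, where 15.4% of genes were higher. The lymphocytes of whole skin and of epidermis are different populations, and basal keratinocyte markers summed to 153 CPM in lesional and 6296 CPM in non-lesional lymphocytes. Their part was not tested. In Langerhans cells none of 3 measured members was called, against 13.3% of genes. Myd88 stood at 2.34 (1.49 to 3.66), Tlr2 at 1.14 (0.6598 to 1.92) and Irf5 at 1.01 (0.684 to 1.46).

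Non-lesional mutant epidermis was set against untreated epidermis in keratinocytes. None of 5 measured members was called, where 4.57% of 12803 genes were called. Unc93b1 stood at 0.504 (0.338 to 0.7703), Irf5 at 0.614 (0.462 to 0.829), Myd88 at 0.701 (0.542 to 0.917), Irak3 at 1.03 (0.598 to 1.9001) and Tlr2 at 1.19 (0.366 to 6.17), and the median log2 ratio was -0.52 over the 5 members and -0.05 over all genes. The intervals of all 5 reach past 1.5-fold on a side or both, so changes of that size were not barred at this depth. In lymphocytes none of 3 was called, against 5.24% of genes. Of the pathway lists in keratinocytes, none of 17 adaptors and kinases and none of 8 transcription factors was called. Il1b at 6.69 (1.801 to 55.99) and Cxcl10 at 3.64 (2.21 to 6.42) were higher among 8 cytokine genes, and the leukocyte genes Tyrobp at 19.1 (7.43 to 70.4), Fcer1g at 5.26 (3.93 to 7.21) and Ctss at 26.3 (4.67 to 1045) were higher beside summed lymphocyte markers of 804 CPM in non-lesional and 279 CPM in untreated keratinocytes. The part of leukocyte RNA in them was not tested.

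Genes with the most similar pattern over the 37 library and class sums were found for the 9 members with at least 100 UMIs, by Pearson correlation of log2(CPM + 5). These sums share libraries and depth, so the values are descriptions. Tlr7 was most like Ccl24 (r = 0.88), F13a1 (0.85) and Cd300ld (0.82), and Tlr8 was most like Creg2 (0.83). Tlr13 was most like the ion channel gene Trpm2 (0.91), Cd300lb (0.90) and Gpr84 (0.89). Unc93b1 was most like the endosomal nuclease Pld4 (0.88) and Cybb, a subunit of the phagocyte oxidase (0.87). Irf5 was most like Ctss (0.89), the invariant chain Cd74 (0.88) and Ly86 (0.88), genes of antigen-presenting cells. Tlr2 was most like Clec5a (0.82) and Metrnl (0.78), and Tlr4 was most like Entpd1 (0.86) and Fam20c (0.79). Myd88, with Slc25a45 (0.73), and Irak3, with Nhsl2 (0.71), had the lowest leading values.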

How the data were processed

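Single-cell RNA was measured in 5 libraries of mouse skin, 1 per group. The deposited values are raw UMI counts per gene and barcode, made by the authors with CASAVA and Cell Ranger on mm10 per the submitters' processing notes (versions not given; the matrix headers give 3.0.2). Per the labels, digested tissue was freed of dead cells by FACS and run with the Chromium 3′ v3 kit.

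From the counts, barcodes with at least 200 genes and under 20% mitochondrial UMIs were kept. Scrublet's top-scoring barcodes (0.8% per 1000 barcodes, 2 to 215 per library) were removed as doublets. Each cell was gated into a class from 24 marker lists (score at least 0.15, second class at most 0.7 of it, at least 3 markers, or 2 for short lists), and cells with 10% haemoglobin UMIs were set apart. The gate left 1229 cells in no class and 1026 cells (8.86%) near a limit. Of the cells with both a gate class and a named joint cluster, 91.5% had the same name in both. UMIs were summed per class and library. Library totals ran from 3020790 to 41258087 UMIs. CPM errors are exact Poisson, shares exact Clopper-Pearson and ratios exact conditional binomial 95% intervals, and counting error is all they cover. Each count table was compared whole, over all genes with at least 10 UMIs, in 5 comparisons. Thinned shares used 2000 UMIs per cell and left out 133 to 646 shallower cells per library.

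The members, lists, gates and motifs were chosen with earlier results of these data known: the gates after member levels were seen, and the motifs after the promoters were. All members are named. Of 7 pathway lists (90 genes, 89 in the files), counts are given with up to 4 called examples by largest ratio, and some further called genes were named after their values were seen. Calls were tested on simulated data, where part of the changes put in was not called, most often in neutrophils. Python 3.11.15, numpy 2.4.6, scipy 1.17.1, pandas 2.3.3 and scanpy 1.11.5 were used, with seed 11. Alternatives changed the cell filter, doublets, gates, scaling, gene filter, fold limit, depth and cell subsets. Strand and multi-gene settings of the authors' counting are not given in the sources used here.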

Additional observations from a re-analysis of the deposited data

Results flagged for a closer look

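Tlr2 moved in opposite directions between lesional skin and imiquimod dermis in different classes. Its log2 ratio, with 0.5 UMIs added to each count, was 1.81 in C1q macrophages and 1.14 in monocytes, against -3.78 in lymphocytes. The lymphocyte value rests on 1 UMI in lesional skin and 21 UMIs in imiquimod dermis, where summed neutrophil markers in lymphocytes were 1907 CPM, against 105 CPM in lesional skin. The difference between classes was not tested.

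A Tlr7 signal also lay in cells that no comparison used. The 6 plasmacytoid dendritic cells of imiquimod dermis held 30.9 CPM of Tlr7, which is 2 UMIs, and 648 CPM (467 to 876, 42 UMIs) of Unc93b1. The 2 such cells of lesional skin held 0 UMIs of Tlr7, and no untreated library held cells of this class.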

How the results depend on the processing

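Over 16 alternative settings, 1541 recomputed member ratios gave 90 that left the counting interval of the reported ratio, and no called ratio changed sign. The settings for the gene filter and the fold limit change only which ratios are called, so no ratio could move under them. The other settings draw largely on the same UMIs, so a kept sign is not a replicate check. All 30 called ratios kept their sign in every setting that gave a value, with ranges wide where UMIs were few: Tlr7 in C1q macrophages of imiquimod against untreated dermis ran from -3.15 to -1.54 (log2), and of lesional skin against untreated dermis from -4.02 to -0.35. The number of members called moved by over 1.5 times in 7 of 79 recomputed counts. In lesional against non-lesional keratinocytes (1 called) it was 2 under scaling by the median ratio, under a total without mitochondrial, ribosomal protein and haemoglobin UMIs, and with no filter on low genes. For C1q macrophages of lesional skin against untreated dermis (4 called) it was 2 with a 2-fold limit, 1 with cells thinned to 2000 UMIs, and 0 among cells without resident markers, a setting chosen after seeing the data that leaves few cells, as does the one for cells with Y-linked UMIs only. In neutrophils (3 called) it was 1 under scaling by the median ratio. Cells with Xist alone gave no comparison, since the wild-type libraries held none, and 8 of 10 members were then highest in a myeloid class of lesional skin, against 10 of 10 with all cells. No paired analysis was possible because each group has 1 library. Depth limits Tlr9 in all libraries, Tlr7 and Tlr8 in thinned cells, and values in the 24 fibroblasts and 35 cDC2 of untreated dermis.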

Other observations

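Pairs of classes within a library hold further values of the members. In imiquimod dermis the monocyte level over that of C1q macrophages was 2.43 (2.16 to 2.74) for Tlr2 and 2.46 (2.22 to 2.72) for Irf5, against 0.8204 (0.774 to 0.869) for Unc93b1 and 1.01 (0.778 to 1.32) for Tlr7. In lesional skin the same ratios were 1.52 (1.25 to 1.85), 1.38 (1.06 to 1.81), 0.655 (0.565 to 0.758) and 1.08 (0.599 to 1.9) in that order. Migratory dendritic cells of imiquimod dermis, of which there were 37, held 80.3 CPM (57.6 to 109, 41 UMIs) of Unc93b1 and 11.8 CPM (4.31 to 25.6, 6 UMIs) of Tlr2. The 17 cDC1 of that library, dendritic cells of the cross-presenting type and too few to be compared, held 297 CPM (241 to 363, 96 UMIs) of Unc93b1.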
